A study of Homo sapiens with 12 samples.

Results

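MDA-MB-231 cells that carried short hairpin RNAs against SIRT1 and IGF2BP2 together (double KD) were compared with cells that carried the SIRT1 hairpin alone (SIRT1 KD), which asks what added loss of IGF2BP2 changes in cells already depleted of SIRT1. The comparison rests on 6 of the 12 RNA sequencing libraries of the series, 3 per group, taken by their labels. MDA-MB-231, an established human cell line from a triple-negative breast cancer, has mesenchymal character. Every group, the controls with a sham hairpin and the IGF2BP2 KD cells included, was infected with lentivirus that HEK-293T cells (a line from human embryonic kidney) had packaged, in the presence of Polybrene, and was kept in RPMI-1640 with serum under puromycin. Both groups of the comparison therefore share the SIRT1 hairpin, and by their labels they differ by the IGF2BP2 hairpin. The labels do not say whether SIRT1 KD cells carried a sham hairpin in its place. The design text gives 3 independent analyses per condition, and no source used here says whether these were separate infections, and p-values therefore refer to the spread among the libraries at hand.

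SIRT1 is an NAD-dependent deacetylase of histones, transcription factors and other proteins, and it restrains, among others, the inflammatory factor NF-kB. IGF2BP2 is an RNA-binding protein of the cytoplasm that attaches to many messenger RNAs, often at m6A-marked sites, and is known for keeping them stable and translated. It is abundant in many tumours, where its described targets include transcripts of growth factors, MYC and HMGA proteins.

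Reads assigned to genes numbered 15243152 in double KD replicate 2, which stood apart from its partners, and between 19522606 and 22509142 in every other library. In that library mitochondrially encoded mRNAs took 0.900% of reads, against 1.84% to 2.39% in the other 11. Its deviation from its partners also followed base composition: from the lowest-GC to the highest-GC of 5 equal bins of transcripts the median deviation moved by 0.57 on the log2 scale, against -0.30 to 0.29 in the other 11 libraries. Without it, median differences of double KD from SIRT1 KD ran from 0.07 (lowest GC) to -0.06 (highest GC), against -0.01 and 0.05 with all libraries. From the shortest to the longest bin of transcripts they ran from -0.04 to 0.06 without it, against 0.02 and 0.04. Gene list counts are therefore given with and without double KD replicate 2, as are some single genes whose call or size depended on it. Values of other single genes come from all libraries and may depend on it too. Markers of the line were present, and among its 8 basal and mesenchymal markers VIM and ZEB1 passed the test, both lower in the double KD group (-0.43 and -0.36 on the log2 scale). Without double KD replicate 2, 4 of the 8 were lower and 0 higher. The hormone receptors ESR1 and PGR, 5 of 6 leukocyte markers, 5 of 6 packaging-cell markers and the fibroblast markers DCN and COL3A1 reached at most 7.66 normalized counts in any library, below the filter on low counts. Of the other luminal markers FOXA1 was below the filter too, while ERBB2 and GATA3 passed it and were not called. Without double KD replicate 2, 1 of these 2 was lower. The remaining packaging-cell marker, HMGA2, which tumour lines also express, was at -0.08 and not called, but stood higher in SIRT1 KD (1.89) and in IGF2BP2 KD (0.70) than in control. Of the other 4 fibroblast markers COL1A1 was higher (1.05) and PDGFRB lower (-0.39) in double KD, and COL1A2 and LUM were not called.

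IGF2BP2 (ENSG00000073792.16), the transcript targeted by the added hairpin, stood at 3791, 3759 and 3720 size-factor-normalized read counts in SIRT1 KD replicates 1 to 3 and at 992, 715 and 884 in the double KD libraries. The groups were far apart, with a log2 difference of -2.13 (SE 0.094, limma adjusted p = 8.1e-11) that was -2.00 without double KD replicate 2. IGF2BP3, a paralog that binds similar targets, did not pass the test with all libraries (0.21, adjusted p = 0.074) but was higher without double KD replicate 2 (0.31, adjusted p = 2.9e-04). SIRT1 itself, targeted in both groups, read 547, 496 and 539 in SIRT1 KD and 396, 380 and 436 in double KD libraries. Those libraries did not overlap, so SIRT1 was lower still with the IGF2BP2 hairpin added (-0.38, adjusted p = 0.0016; -0.34 without double KD replicate 2). In bulk RNA, fewer cells holding a transcript and less of it per cell cannot be told apart.

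Genes with the 7-mer AGCGGTA, which the 3′ UTR of IGF2BP2 also holds, had a lower median in double KD than genes without it. A short hairpin is processed to a small RNA, and as general background such RNAs can lower other transcripts that pair with their seed. No source used here gives the hairpin sequences. The 7-mers were instead ranked in IGF2BP2 KD against control, libraries that do not enter the comparison of double KD with SIRT1 KD, by the median log2 difference of genes with each 7-mer in the 3′ UTR less that of genes without it. Over 15980 7-mers held by at least 100 of 13145 protein-coding genes, AGCGGTA ranked lowest there (-0.24) and ranked lowest again in double KD against SIRT1 KD (-0.29, and -0.25 without double KD replicate 2). In SIRT1 KD against control its value was near 0. The sites below, from GENCODE 29 on GRCh38, are shown because these genes are among the largest falls of those with the 7-mer, LOX for its place in the matrix list below. Capitals mark the 7-mer, and every site lies in the last exon.
IGF2BP2 (chr3:185645058-185645080, minus strand, exon 16 of 16): gtgcctgcAGCGGTAatatattt
OSMR (chr5:38935386-38935408, plus strand, exon 18 of 18): tagtagaaAGCGGTAtcctgatt
EMP1 (chr12:13215058-13215080, plus strand, exon 5 of 5): gttaaaatAGCGGTAcaagttct
MTPN (chr7:135926938-135926960, minus strand, exon 4 of 4): tctttctaAGCGGTAatggagga
SETD7 (chr4:139510787-139510809, minus strand, exon 8 of 8): tatctctaAGCGGTAactatggc
LOX (chr5:122065154-122065176, minus strand, exon 7 of 7): gcggatatAGCGGTAcatatgat

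Of the 140 genes with AGCGGTA, adding the IGF2BP2 hairpin left 63 lower (45.0%) and 9 were higher (6.43%). Of the 13005 searched genes without it, 12.6% were lower and 14.7% higher. Without double KD replicate 2 the lower shares were 47.1% and 16.5%. The median over the 140 genes, set against the mean of the SIRT1 KD libraries, was -0.21, -0.40 and -0.25 in double KD replicates 1 to 3, so each library showed it. OSMR, the receptor subunit for oncostatin M, read 6491, 5962 and 6577 in SIRT1 KD and 2636, 2133 and 2621 in double KD libraries (-1.37, adjusted p = 1.5e-09). MTPN, which encodes the actin-capping regulator myotrophin, went from 6071, 5993 and 6350 to 2789, 2501 and 3150 (-1.13). The same 63 of 140 count was found for lower calls in IGF2BP2 KD against control, where 1484 of the 13005 genes without the 7-mer were lower. The interaction described below was called for 5 of the 140 and for 472 of the 13005, which are near-equal shares. The 7-mer GCGGTAC ranked next in double KD against SIRT1 KD, and it shares 6 letters with AGCGGTA. The 7-mer was in 7.48% of the searched genes that fell at least 2-fold, against 1.07% of all searched genes. Among the 15 largest falls named below it was in IGF2BP2 and PNMA2, and what the hairpin contributes to the falls of the other genes with it was not tested.

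**Figure D1:**
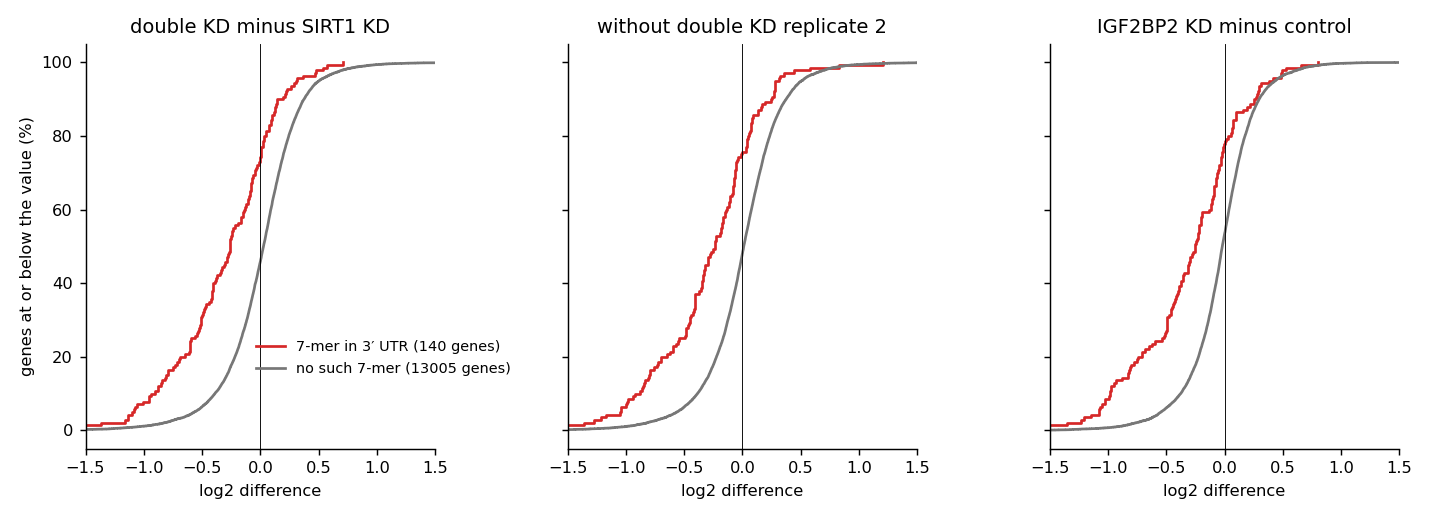
Cumulative share of protein-coding genes (y axis, %) at or below a log2 difference (x axis) for the 140 genes with the 7-mer in the 3′ UTR and the 13005 genes without it, in double KD against SIRT1 KD, the same without double KD replicate 2, and IGF2BP2 KD against control. The curve of genes with the 7-mer lies to the left over most of its range in each panel, with 45.0% of its genes called lower in double KD against SIRT1 KD.

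Across 17576 genes tested, 3980 differed between double KD and SIRT1 KD cells at an adjusted p under 0.05 (22.6% of genes): 2093 were higher (11.9%) and 1887 lower (10.7%). Without double KD replicate 2 the count was 5147 (29.3%), with 2693 higher (15.3%) and 2454 lower (14%). The list counts below are to be read beside these shares of all genes. Of the 3980 calls, 3587 (90.1%) were made in the same direction without that library, 393 were lost and 0 turned, while 1560 others were gained. The spread in these fits is shared by all 4 groups. Over genes, double KD libraries deviated from their partners with an SD of 0.36 to 0.48 (log2), against 0.27 to 0.31 elsewhere. A shared estimate may therefore understate the spread of double KD. With only the 6 libraries of the comparison in the fit, 2214 genes were called (1085 higher and 1129 lower). Without SIRT1 KD replicate 2 the higher genes numbered 1366. Changes past 2-fold were mostly falls: 204 of 308, and 277 of the 308 were also called without double KD replicate 2. The 6 libraries did not overlap between groups for 5834 genes (33.2%), of which 3822 were called.

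The largest falls that held in both fits began with CLDN1 and SCG2. CLDN1, a tight junction claudin, stood at 243, 241 and 256 normalized counts in SIRT1 KD and at 35.6, 43.9 and 62.9 in double KD libraries (-2.39, SE 0.204, adjusted p = 2.0e-07). SCG2, a secretory granule protein, went from 358, 317 and 366 to 82.8, 39.8 and 85.5 (-2.38), and was lowest in double KD replicate 2. Besides the targeted IGF2BP2, the others were IL24 (-2.35), CXCL8 (-2.07) and AREG (-1.95), described with their families below, the orphan nuclear receptor NR4A2 (-1.86), the activin antagonist FST (-1.77), IL11 (-1.72), the caveolar coat protein CAVIN2 (-1.65), the Hedgehog antagonist HHIP (-1.63), the cyclic GMP phosphodiesterase PDE5A (-1.62), the TNF family ligand TNFSF15 (-1.62), PNMA2 (-1.57) and the kisspeptin precursor KISS1 (-1.54). Without double KD replicate 2 these ranged from -1.23 (PDE5A) to -2.43 (IL24). Absence of overlap between the groups was a condition for naming them, as it was for the rises.

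The largest rises were smaller. ATOH8, a transcription factor of the basic helix-loop-helix class, read 48.7, 28.8 and 39.0 in SIRT1 KD and 145, 156 and 114 in double KD libraries (1.83, SE 0.163, adjusted p = 3.0e-07; 1.74 without double KD replicate 2). PROM2, a prominin of membrane protrusions, went from 76.5, 69.7 and 73.7 to 232, 248 and 191 (1.59). The others were the leukocyte integrin chain ITGB2 (1.53), AMMECR1 (1.51), the CDP-diacylglycerol synthase CDS1 (1.35), the actin-bundling ESPN (1.29), ZNF367 (1.26), the iron exporter SLC40A1 (1.22), the germ cell nuclear receptor NR6A1 (1.22), the exchange factor PLEKHG4 (1.21), the retinoic acid hydroxylase CYP26B1 (1.20), the transferrin receptor TFRC (1.15), the epithelial ETS factor ELF3 (1.15), the collagen chain COL5A1 (1.14) and UHRF1 (1.08). TFRC is the most abundant of these: it read 5914, 5606 and 5700 in SIRT1 KD and 12259, 12988 and 13092 in double KD libraries.

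**Figure D2:**
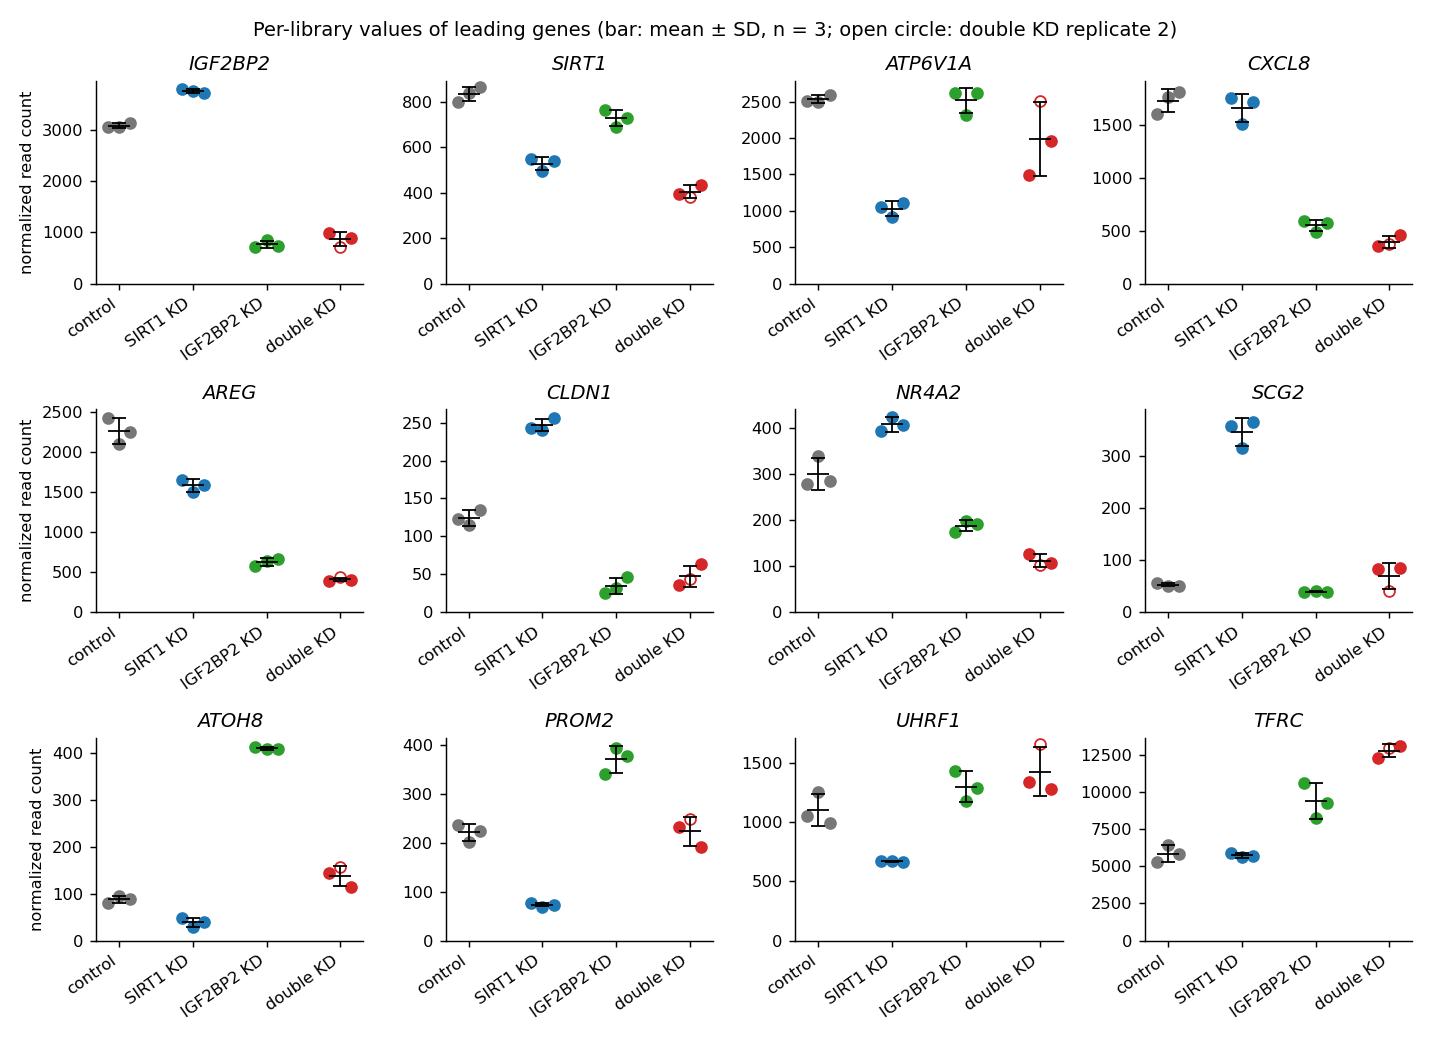
Size-factor-normalized read counts (y axis) of 12 genes in each library of the 4 groups, with bars for the mean and SD of 3 libraries and an open circle for double KD replicate 2. IGF2BP2, CXCL8, AREG, CLDN1, NR4A2 and SCG2 lie lower and ATOH8, PROM2, UHRF1, TFRC and ATP6V1A higher in all double KD than in all SIRT1 KD libraries.

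NF-kB targets and secreted inflammatory signals were mostly lower: of 19 members tested 12 were lower and 0 higher, with a median of -0.62 against 0.02 over all genes tested. Without double KD replicate 2, 16 of 19 were lower (median -0.67). The list fell alike in cells with SIRT1: in IGF2BP2 KD against control 13 of the 19 were lower and 0 higher (median -0.67). Of all genes tested 9.39% were lower there. The interaction described below was negative for 2 of the 19 and positive for 0, with a median of -0.06. CXCL8, the neutrophil chemokine, stood at 1757, 1508 and 1717 in SIRT1 KD and at 352, 376 and 459 in double KD libraries (-2.07, SE 0.100, adjusted p = 2.1e-10). IL24, a cytokine of the IL-10 family, went from 549, 476 and 476 to 92.6, 108 and 90.7 (adjusted p = 3.7e-11). The double KD libraries of these genes sat close together, and no SIRT1 KD library reached them. IL6, a cytokine of acute inflammation, went from 641, 566 and 548 to 223, 202 and 246 (-1.39), and IL11, of the same family, from 472, 459 and 410 to 126, 170 and 113. In SIRT1 KD against control, which uses the same SIRT1 KD libraries, 3 of the 19 were higher and 5 lower with a median of -0.06. Over all 17576 genes tested 2272 were higher and 2758 lower there. None of the 19 holds AGCGGTA in the 3′ UTR.

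The NF-kB motif, searched by its usual degenerate consensus on both strands, was found in 7 of the 16 members whose promoter was matched by symbol in a RefSeq table (250 bases before to 50 after the start, GRCh38.p14). That is 43.8%, against 6.72% of 10671 matched protein-coding genes tested and 5.72% of all 27305 promoters in the table. The list was chosen for NF-kB targets, so its share is a description only. Of all matched genes called lower 6.63% had the motif, and of those called higher 6.49%. CXCL8, IL24 and IL11, the members among the largest falls, had no NF-kB match. The AP-1 motif TGANTCA was in 3 of the 16 (18.8%), against 4.58% of the matched genes tested and 7.76% of all promoters. The promoter of IL6 is shown because it had the lowest adjusted p among the lower members with an NF-kB match, which is in capitals. The match describes letters in this window and says nothing about binding.
IL6 (chr7:22726950-22727249, plus strand): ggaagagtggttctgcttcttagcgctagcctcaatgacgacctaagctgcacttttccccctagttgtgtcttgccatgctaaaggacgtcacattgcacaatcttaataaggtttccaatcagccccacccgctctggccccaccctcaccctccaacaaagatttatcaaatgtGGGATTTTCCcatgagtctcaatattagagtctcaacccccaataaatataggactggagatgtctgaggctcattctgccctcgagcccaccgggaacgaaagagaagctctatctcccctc

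Of the EGF receptor ligands AREG, EREG and TGFA fell, while the receptor did not pass the test. AREG, amphiregulin, went from 1655, 1503 and 1592 in SIRT1 KD to 393, 434 and 400 in double KD libraries (-1.95, SE 0.079, adjusted p = 3.7e-11). EREG, epiregulin, went from 1134, 1048 and 1209 to 523, 401 and 508 (-1.25), and TGFA from 2120, 1937 and 2135 to 1094, 1230 and 1088 (-0.86). The sheddase ADAM17, which releases such ligands from the membrane, was lower by a smaller step (-0.29), as was ADAM10, named after its value was seen (-0.32), and EGFR was at -0.03. Of 12 genes of the family tested, 5 were lower and 1 higher (6 and 1 without double KD replicate 2). The exception was the ligand HBEGF (0.34), named after its value was seen.

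Among 12 plasminogen activators, metalloproteinases and their inhibitors 8 were lower and 0 higher, and 11 were lower without double KD replicate 2 (medians -0.53 and -0.57). The same list had 7 lower and 0 higher in IGF2BP2 KD against control (median -0.57), where 9.39% of all genes tested were lower. TIMP3, a metalloproteinase inhibitor of the matrix, went from 4809, 4472 and 5063 to 1827, 2380 and 2066 (-1.20, adjusted p = 1.1e-08). The plasminogen activator PLAT (-0.73) and the protease inhibitor SERPINE2 (-0.99) were lower too, so an activator and inhibitors were lower together. In the BMP and TGF-beta pathway members moved both ways. TGFB2, a TGF-beta ligand, went from 2782, 2547 and 2911 to 1084, 845 and 1125 (-1.44), and the BMP antagonist NOG was lower (-0.92). The related ligands TGFB1 (-0.62) and TGFB3 (0.65), named after their values were seen, went opposite ways. TGFBR3, the co-receptor betaglycan, was higher (0.80), as were ATOH8 and, named after its value was seen, the BMP target ID3 (1.32). In all 8 of 25 members were higher and 3 lower (8 and 4 without double KD replicate 2).

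Matrix and adhesion genes moved both ways. Of 31 mesenchymal and matrix genes 8 were higher and 12 lower (9 and 14 without double KD replicate 2). FN1, fibronectin, went from 20940, 18420 and 21066 to 9539, 8339 and 9617 (-1.14), and LOX from 1144, 1065 and 1152 to 514, 545 and 610 (-1.01). The fibrillar collagen chain COL5A1 read 2980, 2664 and 2922 in SIRT1 KD and 5770, 7882 and 5450 in double KD libraries, and the basement membrane chain COL4A1 was also higher (0.73). Of 14 integrins 3 were higher, among them ITGB2 and the fibronectin receptor chain ITGA5 (0.56), and 2 were lower, among them the collagen receptor chain ITGA2 (-0.46). Without double KD replicate 2 the integrin counts were 4 higher and 4 lower.

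Immediate-early genes, which growth factors induce, were more often lower than higher. Of 21 immediate-early genes 13 were lower and 1 higher, with a median of -0.39 (15 and 1, -0.45, without double KD replicate 2). This list also had 13 lower and 1 higher in IGF2BP2 KD against control (median -0.33), where 9.39% of all genes tested were lower. NR4A2 read 393, 424 and 407 in SIRT1 KD and 127, 103 and 106 in double KD libraries (adjusted p = 2.1e-09). NR4A1 (-1.31) and the ERK phosphatases DUSP6 (-1.01) and DUSP5 (-0.92) were lower as well. The exception was JUN (0.40), named after its value was seen. Of 21 endoplasmic reticulum chaperones and regulators of the unfolded protein response 14 were lower and 0 higher (16 and 1 without double KD replicate 2; medians -0.32 and -0.35). HSPA5, the abundant chaperone BiP, went from 48596, 41579 and 44385 to 23039, 28617 and 27496 (-0.77, adjusted p = 9.5e-07), and its co-chaperone DNAJB9 was lower by -0.88. Of 20 ATF4 targets of the amino acid stress response 10 were lower and 2 higher (11 and 2), with CEBPB (-0.81), the cell death regulator DDIT3 (-0.65) and the cystine transporter SLC7A11 (-0.60) lower and ATF5 (0.54) higher. Cytosolic heat shock proteins, a separate chaperone system, gave 2 higher and 1 lower of 14, and 2 higher and 4 lower without double KD replicate 2.

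Transcripts described as IGF2BP-bound were lower in part. Of 10 tested, 4 were lower and 1 higher in both fits. HMGA1, a chromatin architectural protein, went from 53819, 50161 and 51012 to 32603, 37110 and 38158 (-0.53), MYC from 9964, 9506 and 9435 to 6539, 7058 and 7573 (-0.45), and NRAS was at -0.32. CCND1, cyclin D1, was higher (0.20, adjusted p = 0.021). The MYC and HMGA1 libraries of the groups did not overlap. Among 18 m6A writers, erasers and readers 2 passed the test, both higher: YTHDC2 (0.22) and HNRNPA2B1 (0.19), the latter at an adjusted p of 0.055 without double KD replicate 2. That count is near the 11.9% of all genes tested that were higher.

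Most DNA replication genes were higher in double KD cells. Of 38 tested 28 were higher and 1 lower, with a median of 0.46 against 0.02 over all genes (29 and 0, median 0.42, without double KD replicate 2). GINS1, a subunit of the replicative helicase complex, stood at 473, 482 and 459 in SIRT1 KD and at 734, 962 and 821 in double KD libraries (0.82, SE 0.101, adjusted p = 1.1e-05). The origin loading factor CDC6 went from 494, 479 and 567 to 833, 952 and 913 (0.81), MCM10 from 372, 357 and 367 to 666, 624 and 643 (0.82), and the helicase subunit MCM4 from 1785, 1705 and 1700 to 2750, 2872 and 2840 (0.70). No double KD library of these 4 genes overlapped with SIRT1 KD. UHRF1, which recruits maintenance DNA methylation to replicated DNA, read 671, 667 and 664 in SIRT1 KD and 1339, 1659 and 1277 in double KD libraries.

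The step differed from that of the same hairpin in cells with SIRT1. In IGF2BP2 KD against control 0 of the 38 were higher and 6 lower, with a median near 0. Of all genes tested 6.86% were higher and 9.39% lower there. The difference between the steps was called, always positive, for 12 of 38, against 1.70% of all genes tested. The SIRT1 KD libraries were the low ones: against the mean of the SIRT1 KD libraries, the median over the 38 genes was 0.23 to 0.47 in control, 0.20 to 0.49 in IGF2BP2 KD and 0.35, 0.64 and 0.47 in double KD replicates 1 to 3. In SIRT1 KD against control, 24 of the 38 were lower and 0 higher, beside 2758 lower and 2272 higher of all 17576 genes tested. Double KD replicate 2 was the highest of its group for this list. Of 37 cell cycle and mitosis genes 13 were higher and 2 lower (18 and 3 without double KD replicate 2), with a median of 0.15. The phosphatase CDC25A (0.93), MYBL2 (0.72) and FOXM1 (0.56) were higher, and the mitotic motor CENPE, named after its value was seen, was lower (-0.89).

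**Figure D3:**
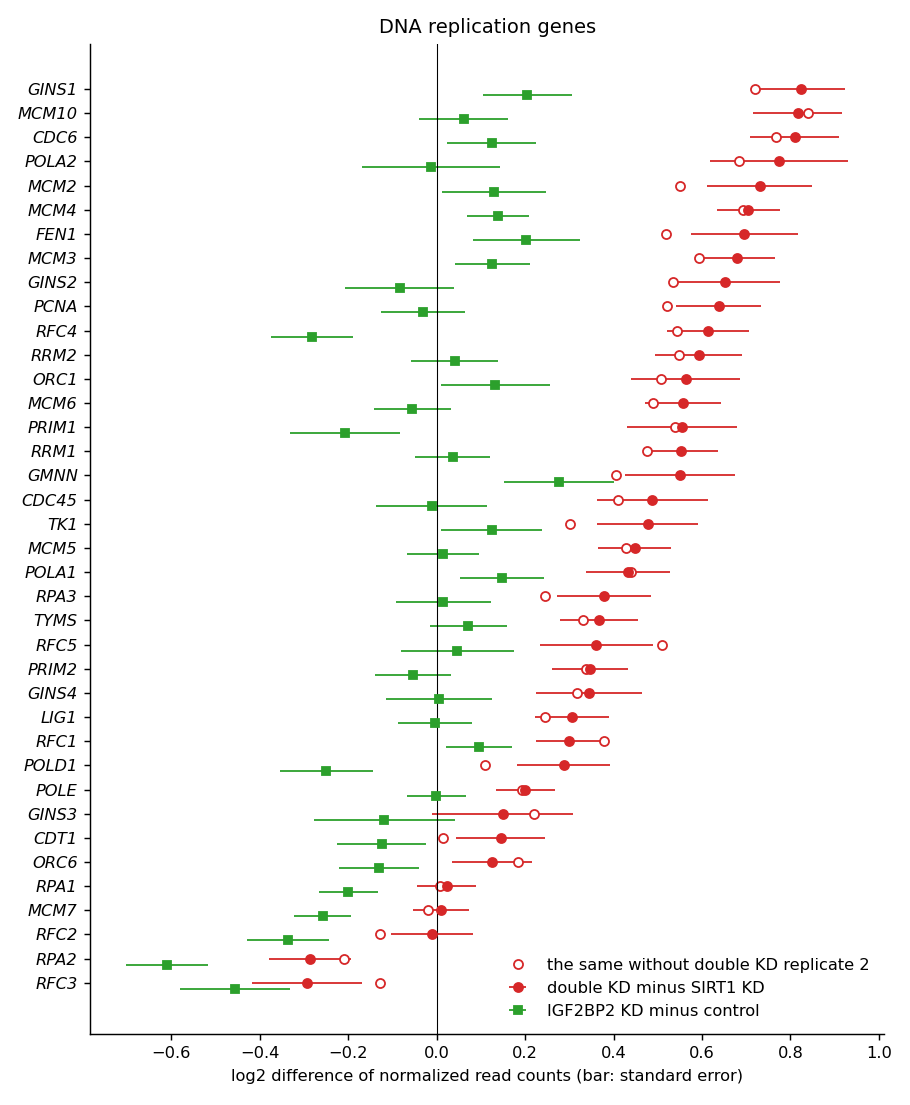
Log2 difference of normalized read counts (x axis, bars are standard errors) for each of 38 DNA replication genes (y axis) in double KD against SIRT1 KD with all libraries (filled circles) and without double KD replicate 2 (open circles), and in IGF2BP2 KD against control (squares). In double KD against SIRT1 KD 28 genes were called higher, and in IGF2BP2 KD against control 0.

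E2F factors drive many replication genes at the start of S phase, as background. The motifs TTCCCGC and TTGGCGC were searched on both strands in the same promoter windows; they share no overlapping match in the promoters shown, where each run of capitals is a single match. Of 33 DNA replication genes matched by symbol 21 had a match (63.6%), and of the 24 matched that were higher 15 had one (62.5%), so the members that rose did not hold it more often than the list. The shares were 14.6% of 10671 matched protein-coding genes tested, 17.4% of those higher and 10.9% of those lower. The promoters of GINS1 and CDC6 are shown because these genes have low adjusted p in the list and a match, and those of UHRF1 and ZNF367, a zinc finger gene that read 413, 417 and 405 in SIRT1 KD and 919, 1047 and 1005 in double KD libraries, because these are among the largest rises. Matches are in capitals.
GINS1 (chr20:25407423-25407722, plus strand): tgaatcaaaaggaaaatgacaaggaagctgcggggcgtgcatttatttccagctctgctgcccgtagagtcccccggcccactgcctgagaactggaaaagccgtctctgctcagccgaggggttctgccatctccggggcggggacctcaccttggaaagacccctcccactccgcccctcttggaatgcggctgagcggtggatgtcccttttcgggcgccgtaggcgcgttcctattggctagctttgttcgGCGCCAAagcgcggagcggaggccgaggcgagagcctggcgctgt
CDC6 (chr17:40287629-40287928, plus strand): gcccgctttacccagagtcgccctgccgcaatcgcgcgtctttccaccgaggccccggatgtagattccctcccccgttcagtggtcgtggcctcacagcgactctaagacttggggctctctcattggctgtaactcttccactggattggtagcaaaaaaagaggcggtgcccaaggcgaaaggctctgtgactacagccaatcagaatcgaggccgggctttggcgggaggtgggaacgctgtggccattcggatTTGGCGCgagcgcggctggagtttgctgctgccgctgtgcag
UHRF1 (chr19:4909251-4909550, plus strand): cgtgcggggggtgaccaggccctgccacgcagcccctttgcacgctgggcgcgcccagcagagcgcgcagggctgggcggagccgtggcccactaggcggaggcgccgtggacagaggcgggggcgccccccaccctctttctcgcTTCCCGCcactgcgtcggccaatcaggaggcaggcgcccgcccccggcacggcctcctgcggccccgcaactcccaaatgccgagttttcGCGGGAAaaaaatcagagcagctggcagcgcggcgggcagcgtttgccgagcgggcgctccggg
ZNF367 (chr9:96418321-96418620, minus strand): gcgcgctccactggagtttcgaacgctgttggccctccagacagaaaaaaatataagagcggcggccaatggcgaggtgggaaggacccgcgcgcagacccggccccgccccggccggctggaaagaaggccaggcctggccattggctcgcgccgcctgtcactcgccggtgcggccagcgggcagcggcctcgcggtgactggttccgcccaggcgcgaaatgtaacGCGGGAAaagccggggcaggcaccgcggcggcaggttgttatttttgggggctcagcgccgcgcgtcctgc

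Metabolic and housekeeping lists moved by small steps. Of 31 cholesterol and fatty acid synthesis genes 13 were lower and 2 higher (15 and 3 without double KD replicate 2), with the desaturases FADS1 at -0.75 and SCD at -0.58, and HMGCS1, an early enzyme of the pathway, at -0.58. SCD is the most abundant of these and read 32228, 28775 and 31446 in SIRT1 KD against 21026, 18575 and 22417 in double KD libraries. Of 34 glycolysis and hypoxia genes 11 were lower and 2 higher (15 and 3), led by NDRG1 (-0.88), the angiogenic factor VEGFA (-0.77) and adrenomedullin, ADM (-0.74). Of 31 proteasome subunits 9 were higher and 0 lower in both fits, among them PSMB2 (0.51) and PSMD2 (0.41).

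Ribosomal and mitochondrial transcripts depended on double KD replicate 2. Of 60 cytosolic ribosomal protein genes, whose pseudogene copies may share reads, 21 were lower and 0 higher (median -0.18), but 54 were lower without that library (median -0.27). Relative to SIRT1 KD the list stood at -0.36, 0.03 and -0.18 in double KD replicates 1 to 3, so replicates 1 and 3 were low and replicate 2 was not. What the trends with transcript length and GC contribute to these counts was not tested. RPL10, the lowest by adjusted p, went from 10037, 9004 and 9721 to 6590, 7924 and 7125 (-0.41). Mitochondrially encoded genes went the other way: their median was -0.54 with 2 of 13 lower, and -0.19 with 9 of 13 lower without it, since the list stood at -0.20, -1.26 and -0.14 in the 3 libraries. MT-ND3 (-0.48) and MT-ND4L (-0.24), subunits of respiratory complex I, passed in both fits. Nuclear-encoded respiratory chain genes gave 6 higher and 5 lower of 42 in both fits. That is near the shares of all genes tested (11.9% higher and 10.7% lower with all libraries).

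**Figure D4:**
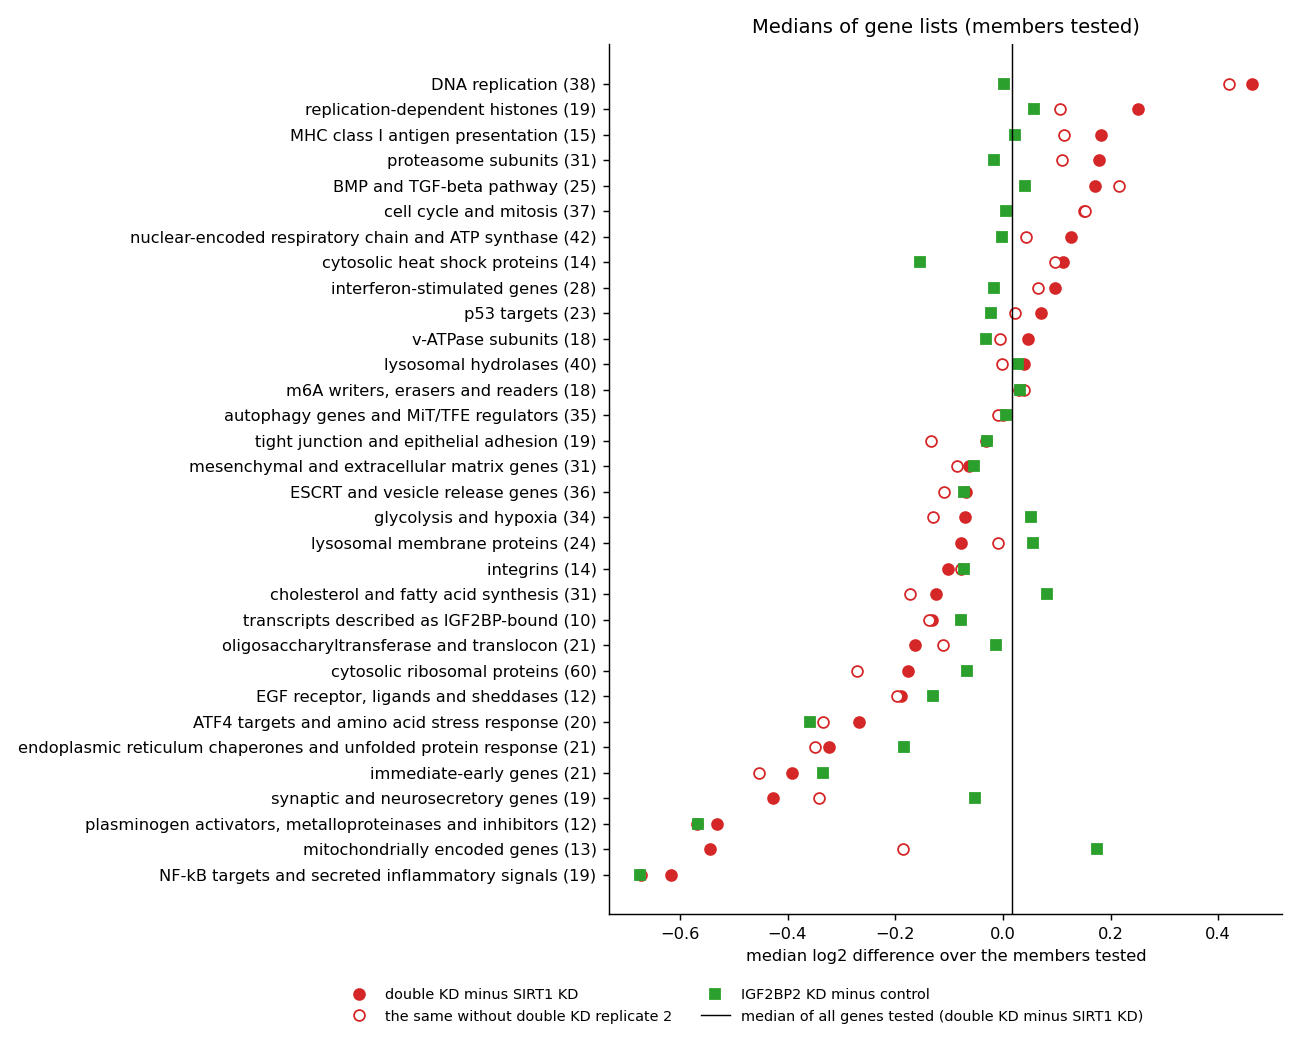
Median log2 difference over the tested members of each gene list (x axis, lists of at least 10 with the number tested in brackets) in double KD against SIRT1 KD with all libraries (filled circles), the same without double KD replicate 2 (open circles) and IGF2BP2 KD against control (squares). DNA replication lies highest at 0.46 and NF-kB targets lowest at -0.62 with all libraries, and mitochondrially encoded genes move from -0.54 to -0.19 without the library.

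Lysosomal and vesicle genes gave mixed results. With all libraries the v-ATPase and hydrolase counts were near the shares of all genes tested (11.9% higher and 10.7% lower). ATP6V1A, the catalytic subunit of the v-ATPase proton pump, read 1058, 916 and 1111 in SIRT1 KD and 1494, 2513 and 1960 in double KD libraries. The groups did not overlap, but the double KD libraries spread widely, and the log2 difference of 0.92 (SE 0.135, adjusted p = 1.6e-04) was 0.74 without double KD replicate 2. Control libraries averaged 2535, and IGF2BP2 KD against control gave -0.01. Of 18 v-ATPase subunits 3 were higher and 2 lower (3 and 3 without double KD replicate 2), with ATP6V1C1 (0.45) higher and the membrane subunit ATP6V0A1 (-0.61) lower. Of 40 lysosomal hydrolases 3 were higher and 5 lower (5 and 9 without double KD replicate 2), the lower ones led by GALC, the galactosylceramidase, from 754, 686 and 727 to 287, 276 and 318 (-1.30), and by the sialidase NEU1 (-1.07). The cholesterol exporter NPC1 was lower (-0.81) and the chloride channel partner OSTM1 higher (0.91). Of 36 ESCRT and vesicle release genes 10 were lower and 1 higher (14 and 3 without double KD replicate 2), with RAB11A (-0.53), which holds AGCGGTA, RAB27B (-0.71) and VPS4B (-0.42) lower. Autophagy genes gave 8 higher and 9 lower of 35 (9 and 11 without double KD replicate 2).

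ATP6V1A also holds a 7-mer tied to the other hairpin's comparison. CTCAGAT and TCAGATA, which overlap in CTCAGATA, were the lowest of the 15980 7-mers in SIRT1 KD against control. The SIRT1 KD libraries enter that comparison and the present one, so the values are a description: of 2633 genes with either, 20.8% were higher and 13.3% lower in double KD, against 13.04% and 12.8% of the 10512 without. Without double KD replicate 2 the higher shares were 29.1% and 16.3%. Among genes lower in SIRT1 KD than in control the shares were close: 329 of 989 genes with a 7-mer and 469 of 1501 without were higher in double KD, with medians of 0.14 and 0.15. The sites of 3 genes that fell with SIRT1 KD and were higher in double KD are shown, with the 7-mer CTCAGAT in capitals. RPN2, a subunit of the oligosaccharyltransferase, averaged 6523 in control and read 1235, 1139 and 1284 in SIRT1 KD and 1837, 1838 and 1827 in double KD libraries (0.59).
PROM2 (chr2:95290278-95290300, plus strand, exon 24 of 24): ggacagacCTCAGATccattaaa
ATP6V1A (chr3:113811688-113811710, plus strand, exon 15 of 15): aacctatgCTCAGATattcatcg
RPN2 (chr20:37241489-37241511, plus strand, exon 17 of 17): ctggtgagCTCAGATagtctctt

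The step given by the IGF2BP2 hairpin in SIRT1-depleted cells was next set beside its step in cells with SIRT1, IGF2BP2 KD against control, which shares no library with it. In IGF2BP2 KD against control 1206 genes were higher (6.86%) and 1651 lower (9.39%). Of the 1651 lower genes, 927 (56.1%) were lower and 27 higher in double KD against SIRT1 KD, which is 49.1% of the latter's lower genes. Of the 1206 higher genes, 616 (51.1%) were higher and 17 lower, which is 29.4% of the latter's higher genes. Across the 17576 genes the log2 differences had a Pearson r of 0.42 (0.45 without double KD replicate 2), given as a description because genes are not independent replicates. AREG (-1.95 and -1.86), CXCL8 (-2.07 and -1.65), KISS1 (-1.54 and -1.46), GALC (-1.30 and -1.29) and LOX (-1.01 and -1.03) fell in both backgrounds.

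A direct test of the difference between those steps, the interaction, was called for 503 genes: 299 positive (1.70%) and 204 negative (1.16%). A positive value means a step more upward in SIRT1-depleted cells. Of the 503, 502 were also called in the same direction without double KD replicate 2, and the count then was 1771. Leaving out other libraries gave 113 (without control replicate 2) to 1062 (without double KD replicate 1), so the count of interactions rests on single libraries more than the count of calls does. MUC5AC, a gel-forming mucin, had the most negative value (-2.85, SE 0.14, adjusted p = 1.2e-09). It read 490, 520 and 564 in SIRT1 KD and 180, 200 and 164 in double KD libraries, a fall of -1.53, while it averaged 209 in control and 525 in IGF2BP2 KD libraries, a rise of 1.32. Its direction therefore turned between backgrounds. HAS2, a hyaluronan synthase, fell with SIRT1 depleted (-1.04) and was at 0.29 otherwise (interaction -1.34).

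Some presynaptic and neurosecretory genes were lower in double KD. Of 19 tested 7 were lower and 1 higher (10 and 2 without double KD replicate 2), and the interaction was negative for 5, against 1.16% of all genes tested. BSN, a scaffold of the presynaptic active zone, read 249, 298 and 267 in SIRT1 KD and 87.2, 106 and 88.6 in double KD libraries (-1.52), but averaged 22.5 in control and 26.5 in IGF2BP2 KD libraries. SYP, a synaptic vesicle protein, went from 170, 158 and 196 to 71.2, 82.3 and 76.3, with 20.7 and 24.6 in the libraries with SIRT1. Double KD means thus lay between SIRT1 KD and control for these genes and for SCG2 (52.4 in control), while RIMS2, another active zone protein, was higher (1.00). At the positive end of the interaction stood CYP26B1 (1.5, from 84.4, 91.0 and 76.9 to 180, 231 and 177), the serotonin receptor HTR1D (1.06), EVA1A (1.06), PLEKHG4 (1.01) and TENT5B (1.00). EVA1A itself did not pass in double KD against SIRT1 KD (0.32, adjusted p = 0.059).

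**Figure D5:**
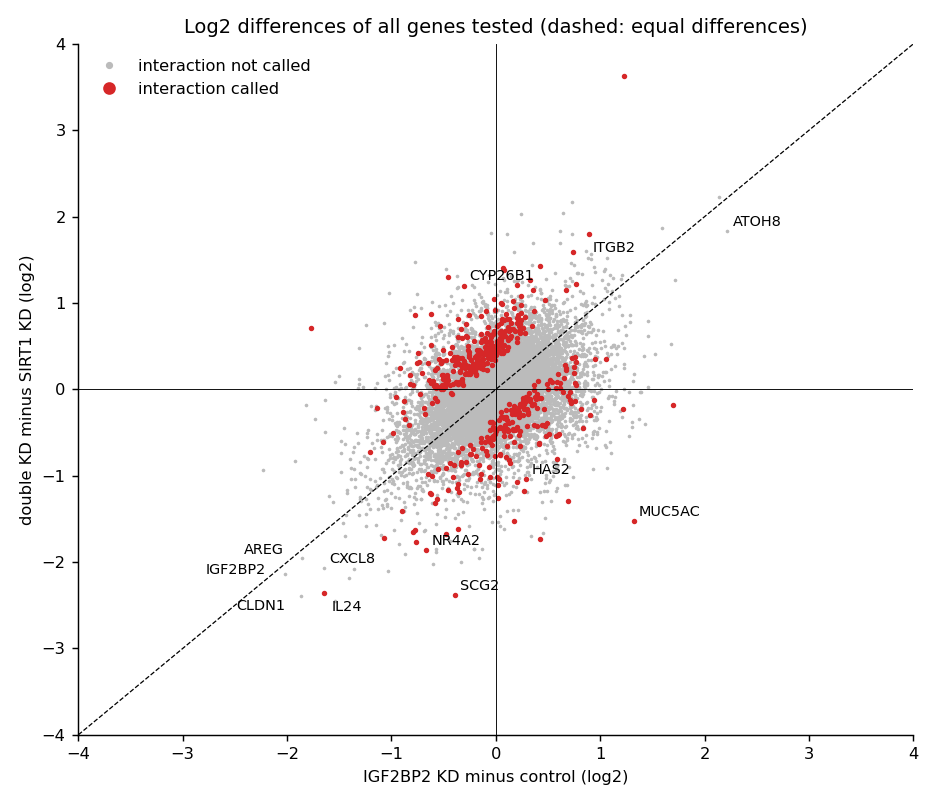
Log2 difference of each of 17576 genes in IGF2BP2 KD against control (x axis) and in double KD against SIRT1 KD (y axis), with the dashed line at equal differences and the 503 genes with a called interaction in red. AREG, CXCL8, CLDN1 and IGF2BP2 fall along both axes, while MUC5AC lies at 1.32 on the x axis and -1.53 on the y axis.

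Calls that rested on double KD replicate 2 are shown by 10 genes. Called only with it, with the lowest adjusted p, were the transporters ABCC3 (0.38, and 0.37 with adjusted p = 0.067 without), SLC10A7 (-0.48, -0.28) and SLC2A13 (-0.48, -0.31), with C7orf31 (-0.50, -0.33) and ARMC7 (0.34, 0.23). In the last 4 of these genes the library lay farther from SIRT1 KD than its partners did. Called only without it were the nuclear import factor KPNA3 (0.38, and 0.59 without), ERBIN (0.30, 0.49), MCRIP1 (-0.30, -0.56), RABAC1 (-0.34, -0.63) and the histone gene H2AC21 (-0.40, -0.65). KPNA3 read 957, 949 and 1026 in SIRT1 KD and 1390, 954 and 1559 in double KD libraries, and RABAC1 668, 602 and 630 against 377, 745 and 443. In these 5 genes replicates 1 and 3 stood away from SIRT1 KD and replicate 2 within or beyond its range.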

How the data were processed

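RNA of 12 MDA-MB-231 libraries in 4 groups of 3 was sequenced. The submitters' processing notes name the build GRCh38.p13 and the tools CASAVA, STAR and DESeq2. Versions, annotation, strand setting and hairpin sequences are not given in these sources. The deposited table holds a signal per gene: read counts that the authors divided by 1 size factor per library. Every value was a whole number of reads within 0.001 reads once the factor was undone. A deposited table of log2 ratios, made by the authors, served only to check which column is which group, and the SIRT1 KD columns were read by elimination. A deposited count table has 12 unnamed columns and was not used. Gene names came from GENCODE 29 and a symbol table (60507 of 60649 IDs matched).

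Genes were kept by filterByExpr (minimum count 10), and log2(value + 1) was fitted with limma 3.58.1 (trend, robust, R 4.3.3) with a mean per group over all 12 libraries, which share 1 estimate of the spread. Fold changes stand on this log2 scale with a pseudocount of 1, so those of weakly expressed genes are understated. P-values were Benjamini-Hochberg adjusted over 17576 genes, and genes passed under 0.05. On simulated counts for double KD against SIRT1 KD over 17576 genes, limma recovered 53% of 100 genes changed by 0.5 (log2) and 100% of those changed by 1. The simulated counts had a fixed dispersion, few changed genes and no outlying library, so these shares need not hold for the data. The fit was repeated with other pseudocounts, filters, scalings and weights, with edgeR 4.0.16 and DESeq2 1.42.0 on the recovered reads, and without each library.

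The members and lists were chosen with earlier results of these data known. Named were SIRT1, IGF2BP2 and ATP6V1A, protein-coding genes with the 15 largest rises and the 15 largest falls that passed with and without double KD replicate 2, at 5 CPM or more and without overlap between groups, 5 and 5 by interaction, 5 each called only with or only without that library, and up to 4 members per list by adjusted p. A few of these are not reported here. Sequences come from GENCODE 29 on GRCh38 and from RefSeq promoters on GRCh38.p14. Same-numbered libraries did not deviate together (correlations of -0.19 to 0.10), so replicate numbers were not used as pairs.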

Additional observations from a re-analysis of the deposited data

Results flagged for a closer look

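For 46 named genes the step given by the IGF2BP2 hairpin differed between SIRT1-depleted cells and cells with SIRT1, by the limma interaction test at an adjusted p under 0.05. The values in brackets are the interaction on the log2 scale, negative where the step was more downward in SIRT1-depleted cells. Most named genes were chosen by size or adjusted p in double KD against SIRT1 KD, a comparison that enters the interaction. Some were chosen by the interaction itself, so their place here follows from that choice. The count of 46 therefore describes chosen genes and does not show how common such differences are. Over all genes tested the interaction was positive for 1.70% and negative for 1.16%. No explanation was tested.

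Among secreted, matrix and surface proteins the values were negative for MUC5AC (-2.85), SCG2 (-1.99), HAS2 (-1.34), FST (-1.01), HHIP (-0.86), FN1 (-0.76), IL24 (-0.71), IL11 (-0.66) and TIMP3 (-0.56), and positive for COL4A1 (0.51), ITGA5 (0.51), TFRC (0.48), PROM2 (0.85) and HTR1D (1.06). The presynaptic genes were BSN (-1.70) and SYP (-1.44). Transcription factors and signal regulators had NR4A2 (-1.19), NR4A1 (-0.73) and DUSP6 (-0.60) on the negative side and NR6A1 (0.45), ZNF367 (0.93) and PLEKHG4 (1.01) on the positive side.

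Replication and cell cycle genes were all positive, with CCND3 (0.37), MCM4 (0.57), GINS1 (0.62), CDC6 (0.68), MCM10 (0.76) and UHRF1 (0.84). Lipid and hypoxia genes were negative, with SCD (-0.56), FADS1 (-0.50) and NDRG1 (-0.48). Respiratory chain genes had COX7C (-0.64), MT-ND3 (-0.55) and MT-ND4L (-0.44) below 0 and CYCS (0.70) above it. Lysosomal genes were split between ATP6V0A1 (-0.47) and the pair OSTM1 (0.54) and ATP6V1A (0.94). The remaining negative values were CAVIN2 (-0.85), BBC3 (-0.67) and DNAJB9 (-0.54), and the remaining positive values were RPN2 (0.38), PSMD2 (0.45), TENT5B (1.00), EVA1A (1.06) and CYP26B1 (1.5).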

How the results depend on the processing

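The 3980 calls in double KD against SIRT1 KD came to 4024 with edgeR, 4037 with DESeq2 and 4030 with TMM scaling. Fitting only the 6 libraries of the comparison gave 2214 calls (1085 higher, 1129 lower). Leaving out 1 library gave 2826 calls (without SIRT1 KD replicate 3) to 5147 (without double KD replicate 2). Higher genes numbered from 1366 (without SIRT1 KD replicate 2) to 2693 (without double KD replicate 2). Changes past 2-fold numbered 201 with a pseudocount of 5 and 104 at 5 CPM or more, against 308. Genes called the same way in IGF2BP2 KD against control numbered 1543. They came to 3039 with library weights, to 2688 with edgeR without double KD replicate 2, an alternative chosen after seeing the data, and to 1110 to 2516 with 1 library left out. The 503 interactions became 926 with DESeq2, 2577 with library weights, 1950 with edgeR without double KD replicate 2, and 113 to 1771 with 1 library left out. With a replicate block 4072 genes were called and 457 interactions, and the numbers do not pair the libraries. Where 1 library is left out, its group's spread is taken from all groups. Of 4058 values of named genes under 24 settings, 3914 kept direction and side of the threshold, 115 no longer passed, 29 newly passed and 0 reversed. These values hold the interaction only for the 5 and 5 genes named by it. Of 1632 list counts 1437 stayed within 1.5 times. The cause of these changes was not tested. In simulated counts 53% of changes of 0.5 (log2) were recovered. Those counts had a fixed dispersion, few changed genes and no outlying library, so that share need not hold for the data. Changes of that size may still be missed.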

Other observations

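Other lists held changes in double KD against SIRT1 KD that were mostly small. Their counts are to be read beside the shares of all genes tested, 11.9% higher and 10.7% lower. Of 28 interferon-stimulated genes 5 were higher and 1 lower (7 and 1 without double KD replicate 2). HERC6 read 322, 304 and 361 in SIRT1 KD and 445, 458 and 499 in double KD libraries (0.51), while the antiviral protein gene IFIT3 was lower (-0.36). Of 23 p53 targets 6 were higher and 5 lower (7 and 7 without double KD replicate 2). GDF15, a secreted stress cytokine, went from 593, 469 and 496 to 189, 236 and 196 (-1.32), and MDM2, the ubiquitin ligase of p53, from 1066, 1062 and 1191 to 1532, 1437 and 1597 (0.46). In neither of these genes did the groups overlap.

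Of 15 genes of MHC class I antigen presentation 3 were higher and 2 lower (5 and 2 without double KD replicate 2). PSMB9, a subunit of the immunoproteasome, read 658, 589 and 602 in SIRT1 KD and 698, 1167 and 783 in double KD libraries (0.48), with replicate 2 the highest. The smallest PSMB9 value over the settings tried was 0.26, and the gene no longer passed in 3 of the 24 settings. Of 19 replication-dependent histone genes 4 were higher and 0 lower (5 and 0 without double KD replicate 2), with a median of 0.25 that was 0.11 without double KD replicate 2, the highest library for this list within its group. H2BC12 read 2469, 2302 and 2592 in SIRT1 KD and 2778, 4419 and 3161 in double KD libraries (0.47). The smallest H2BC12 value over the settings tried was 0.27, and the gene no longer passed in 3 of the 24 settings.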
